A study of Mus musculus and Bos taurus with 6 samples.

Results

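The regions bound by SOX9 in the mouse fetal testis at E13.5 are described here from the deposited mouse peak list, of which every line available here was used. The list held 6419 peaks out of 18407 in the series (34.9%), the rest being bovine. It stands for 3 libraries from gonads of the Swiss OF1 strain: 2 chromatin immunoprecipitations with a rabbit antibody against SOX9, made in house, and 1 input library of chromatin that was not immunoprecipitated. The labels name no genotype, allele or treatment, and the mouse libraries share tissue, strain and stage. They do not give the number of animals, nor do they say whether gonads were pooled. Gonads were crushed whole, so that germ cells, interstitial cells and vessels were present beside the cells that make SOX9. The powder was fixed with disuccinimidyl glutarate, which links proteins to proteins, before formaldehyde. A listed region can therefore be one that SOX9 touches or one that it reaches through a partner.

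SOX9 is a transcription factor of the SOX family whose HMG box binds the minor groove of DNA and bends it. In the XY gonad it is switched on downstream of SRY in the supporting cells, which then become Sertoli cells, the cells that enclose the germ cells in testis cords. SOX9 keeps its own gene active through a distal enhancer, together with NR5A1. Known targets in Sertoli cells include Amh, which encodes the hormone that removes the Müllerian ducts, and Ptgds, which encodes a prostaglandin D synthase. The study's title names transcription and splicing of the target genes as its subject. Targets are named here only as background. No annotation or genome of mm9, the build of the list, was used, so no peak was assigned to a gene and no peak sequence is printed. The testis label could not be checked against marker genes for the same reason.

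The list gives a position and a width for each peak. It holds no height, enrichment or read count, and no value per library. Sequencing depth is unknown and the spread between the replicates could not be formed, so the values below carry no test between samples. The intervals are 95% intervals that cover counting error only, and peaks of 1 list are not replicates of each other. The intervals take peaks as independent draws. Peaks lay unevenly along chromosomes, as the 1 Mb windows below show, so the intervals of counts and shares are too narrow. Where such intervals do not overlap, or leave out an even share, this is a description only. Positions are in mm9 and counted from 1. Peaks on chromosomes 1 to 15, 17 to 19 and X were available, while chromosomes 16 and Y were not analysed here. The count of 6419 and its share of the series stand for the chromosomes analysed.

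SOX9 peaks were short and sparse. They covered 6.54 Mb, which was 0.269% of the 2431 Mb between the first and last peaks of the 19 chromosomes, and none overlapped another. The narrowest measured 241 bp and the widest 4004 bp. The percentiles 10 and 90 were 603 and 1518 bp, and the percentiles 1 and 99 were 425 and 2263 bp. Peaks of at least 500 bp and under 1000 bp were the most numerous class, with 3335 peaks or 52.0% of the list (exact binomial interval 50.7 to 53.2%). Peaks of at least 1000 bp and under 1500 bp numbered 2184 (34.0%, 32.9 to 35.2%) and covered slightly more sequence, 2.62 Mb against 2.58 Mb. Only 216 peaks were under 500 bp (3.37%, 2.94 to 3.84%) and 9 were at least 3000 bp (0.140%, 0.0641 to 0.266%). The broad regions added little to the bound territory. Peaks of at least 2000 bp and under 3000 bp held 4.67% of the covered bases, and those of 3000 bp or more held 0.480%.

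Autosomes differed in the density of SOX9 peaks, given as peaks per Mb between the first and last peak of a chromosome. The median over the 18 autosomes was 2.82. The highest value, 4.66 on chromosome 11, was 2.27 times the lowest, 2.06 on chromosome 1. Chromosome 19 came next to the top with 4.10 (exact Poisson interval 3.60 to 4.66), and its interval overlapped that of chromosome 11 (4.28 to 5.07). Chromosome 9 followed with 3.32 (3.01 to 3.67), an interval that overlapped that of chromosome 19. Below these, chromosomes 2, 4, 7, 15, 5, 10 and 8 formed a group from 3.02 down to 2.78 peaks per Mb whose intervals overlapped throughout. Chromosomes 17, 12, 3, 18, 6, 13 and 14 descended from 2.59 (2.27 to 2.95) to 2.21 (1.95 to 2.50), and neighbours in this order were not separated by their intervals. Chromosome 1 closed the series at 2.06 (1.86 to 2.27). The interval of chromosome 8 (2.50 to 3.09) also overlapped that of chromosome 17, so the order of single chromosomes in the middle of the range is not resolved by the counts.

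**Figure D1:**
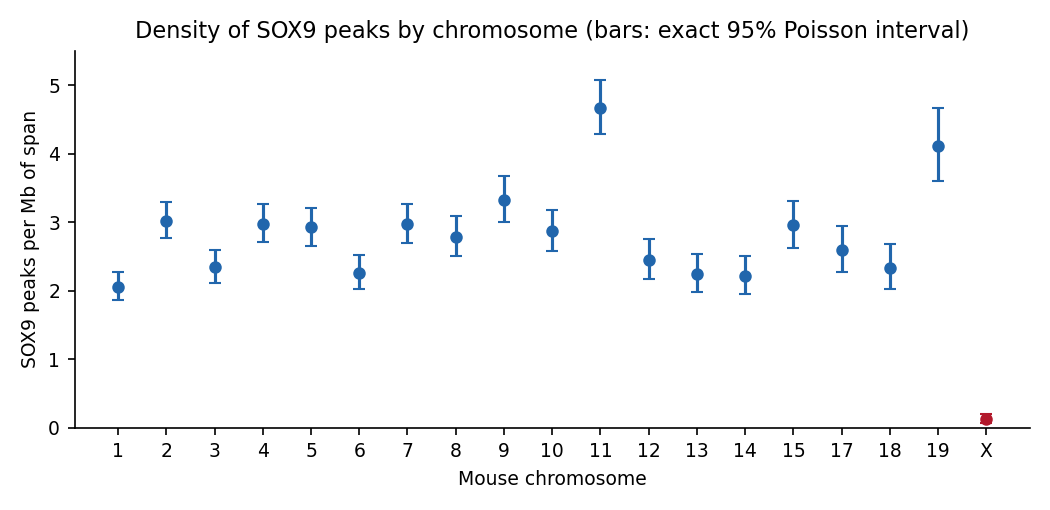
SOX9 peaks per Mb of span (vertical axis) on each mouse chromosome in the list (horizontal axis), with exact 95% Poisson intervals as bars; autosomes are blue and X red. Chromosomes 11 (4.66) and 19 (4.10) stand above the other autosomes, which lie between 2.06 and 3.32, and X lies at 0.128.

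In bases rather than peaks the order at both ends was the same. Peaks covered 4.75 kb per Mb on chromosome 11, 4.29 on chromosome 19 and 3.45 on chromosome 9, against 2.03 on chromosome 1. Peak width added little to these differences because it varied much less than density. The median width of an autosome lay between 901 bp on chromosome 7 (interval of the median 874 to 930 bp) and 1023 bp on chromosome 10 (981 to 1070 bp), a ratio of 1.14. Chromosomes 3 (1010 bp, 953 to 1045 bp) and 9 (992 bp, 950 to 1034 bp) were next to chromosome 10, and their intervals overlapped its own. The densest autosome, chromosome 11, had an unremarkable median of 941 bp (903 to 990 bp). Broad peaks were too few to separate the autosomes. Those over 2000 bp numbered from 3 to 16 per autosome. Their share was highest on chromosome 3, at 4.20% (15 of 357, exact binomial interval 2.37 to 6.84%), and lowest on chromosome 6, at 0.906% (3 of 331, 0.187 to 2.63%), and these intervals overlapped.

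The widest peak of each autosome measured between 2405 bp, at chr17:4558490-4560894, and 4004 bp on chromosome 19. Some of them stood far from any other peak and others did not. The widest of the list, on chromosome 19, had its nearest neighbour 15265 bp away. The widest peaks of chromosomes 14 (3938 bp), 11 (3535 bp) and 10 (3511 bp) had theirs at 48979, 56438 and 14900 bp. These distances were below the median of 65.7 kb over the whole list. The widest peak of chromosome 2, of 3172 bp at chr2:127950933-127954104, had its nearest neighbour 569792 bp away, and that of chromosome 18, of 3379 bp at chr18:39648424-39651802, had it 494991 bp away. The widest peak of chromosome 15, of 2890 bp at chr15:25341753-25344642, sat directly at the edge of the longest stretch without peaks on any autosome, which covered the 12.2 Mb before it. On chromosomes 3 (2876 bp, chr3:129234810-129237685), 8 (2771 bp, chr8:81552331-81555101) and 12 (2782 bp, chr12:77469755-77472536) the nearest peaks were 295698, 206818 and 33697 bp away. The widest peaks of chromosomes 7 (2732 bp, chr7:71082263-71084994) and 1 (2411 bp, chr1:193960207-193962617) had neighbours at 108179 and 43571 bp.

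Chromosome 9 was an exception in position. Its widest peak, of 2706 bp at chr9:3025214-3027919, was its second peak from the start of the chromosome and had another peak 7674 bp after it. The first peak, chr9:2999924-3001125, began before 3 Mb and was the earliest in the list. The next, chr9:3035594-3036914, was followed by 494 kb without a peak. These 3 peaks, picked after their values were seen, lie where mouse assemblies pass from the unsequenced centromeric end into sequence. Whether repeated sequence there took part in the peaks was not tested. On the other autosomes the first peak began between 3.04 Mb (chromosome 2) and 8.62 Mb (chromosome 14), and on 16 of 18 autosomes, chromosome 9 included, it began before 4 Mb.

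The 10 narrowest peaks of the list measured 241 to 338 bp and none lay on X. The narrowest, of 241 bp at chr3:81736566-81736806, had its nearest neighbour 424535 bp away. It was followed by a peak of 257 bp at chr6:47622782-47623038 and one of 291 bp at chr1:95700518-95700808, with neighbours at 21093 and 48804 bp. None of the 10 had another peak within 10 kb, which also held for 85.1% of the whole list. Chromosome 6 held 3 of the 10, together with chr6:125141795-125142090 (296 bp) and chr6:7794843-7795180 (338 bp).

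Peaks were narrower at the median where peaks were crowded. The 421 peaks that were alone in their 1 Mb window had a median width of 1028 bp (987 to 1091 bp). In windows of 2 to 4 peaks the median of 2221 peaks was 987 bp (969 to 1009 bp). In windows of 5 to 9 peaks it was 933 bp (918 to 951 bp, 2578 peaks), and in windows of 10 or more it was 900 bp (881 to 927 bp, 1199 peaks). The intervals of the last 2 classes did not overlap those of the first 2. The widths themselves overlapped widely, with quartiles of 773 and 1337 bp for lone peaks and 706 and 1166 bp in windows of 10 or more. The same order appeared with the distance to the nearest peak, edge to edge. Peaks with a neighbour under 500 bp away had a median of 781 bp (751 to 818 bp, 415 peaks) and those with one from 500 bp to 10 kb 919.5 bp (880 to 955 bp, 542 peaks). From 10 to 100 kb the median was 938 bp (926 to 955 bp, 3084 peaks), and from 100 kb to 1 Mb it was 1017 bp (993 to 1033 bp, 2259 peaks). The 119 peaks with no other within 1 Mb had a median of 1032 bp (929 to 1149 bp). The share of peaks over 2000 bp did not follow this order. From the most crowded class to the least it was 1.93% (0.836 to 3.76%), 2.58% (1.42 to 4.30%), 1.62% (1.21 to 2.13%), 2.70% (2.07 to 3.46%) and 7.56% (3.52 to 13.9%). The last value rests on 9 peaks. Its interval lay above those of the 2 classes from 10 kb to 1 Mb and overlapped those of both classes under 10 kb. The class under 500 bp counts adjoining peaks singly. Joined, 2 such peaks made regions of 1830 bp at the median, so the place of this class in the order of medians depends on that counting.

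**Figure D2:**
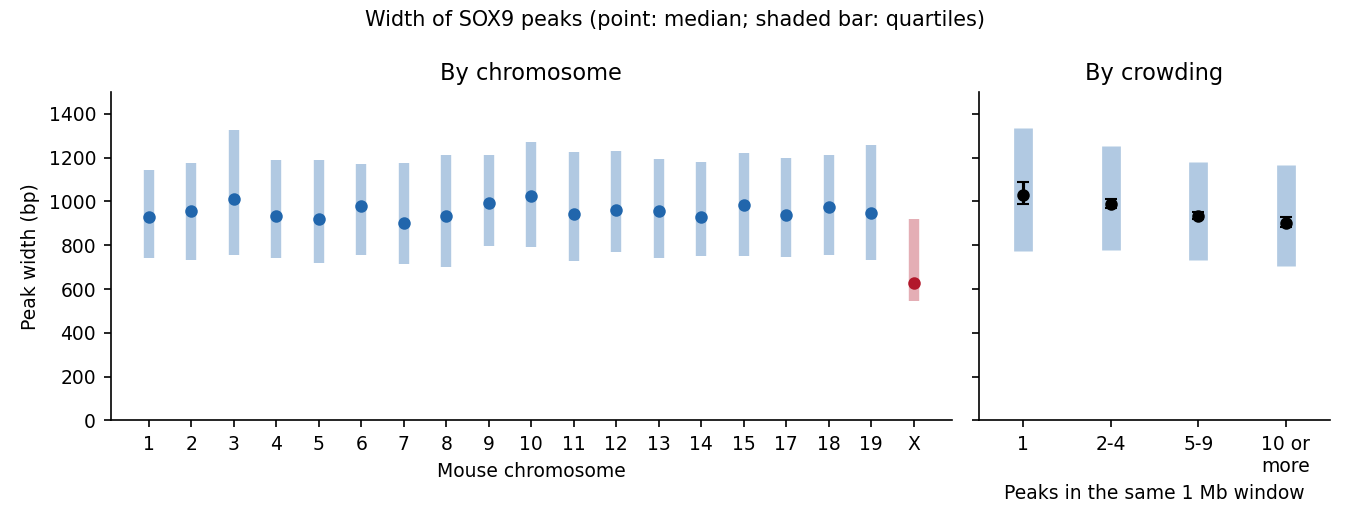
Width of SOX9 peaks in bp (vertical axis) by chromosome (left) and by the number of peaks in the same 1 Mb window (right); points are medians, shaded bars run between the quartiles and black bars at right are 95% intervals of the median. Autosomal medians lie between 901 and 1023 bp and X at 629 bp, and the median goes from 1028 bp for lone peaks to 900 bp in windows of 10 or more.

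Although width went with crowding, neighbouring peaks did not resemble each other in width. Across the 211 pairs less than 500 bp apart, Spearman's rho between the widths of the left and the right peak was 0.090. It was 0.030 over 290 pairs from 500 bp to 10 kb, 0.026 over 2202 pairs from 10 to 100 kb and 0.043 over 3125 pairs from 100 kb to 1 Mb. These values are across pairs of 1 list that share peaks with each other, and so weak a relation is given as a description only.

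Spacing ranged over 7 powers of 10. The gap between consecutive peaks had a median of 130 kb (125 to 135 kb) over 6400 gaps, with quartiles at 50.4 and 344 kb, while the mean was 379 kb. The shortest gap was 1 bp and the longest 16.6 Mb. Seen from each peak, the nearest other peak lay at a median of 65.7 kb (63.1 to 67.8 kb), and 10% of peaks had none within 334 kb. Gaps from 100 kb to 1 Mb were the commonest class, with 3125 gaps (48.8%, 47.6 to 50.1%), followed by 10 to 100 kb with 2202 (34.4%, 33.2 to 35.6%). The 572 gaps of 1 Mb or more were 8.94% of the number (8.25 to 9.66%) but 54.1% of the length between peaks. More than 50% of the sequence between SOX9 peaks thus lay in stretches at least 1 Mb long.

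Median spacing followed density on some chromosomes and departed from it on others. Chromosome 11 had the shortest median gap, 87.9 kb, with quartiles at 30.5 and 214 kb. Chromosome 15 came next with 96.8 kb, although its density of 2.95 was close to the autosomal median. It also had the longest empty stretch of any autosome. Chromosome 19, the second in density, had a median gap of 103 kb. The longest median gaps were 194 kb on chromosome 18, 193 kb on chromosome 13 and 187 kb on chromosome 1. Chromosome 14, with a low density of 2.21 peaks per Mb, had a median gap of only 126 kb and the highest share of empty 1 Mb windows among autosomes, 34.5% of 116. On chromosome 18, of similar density, 19.3% of 88 windows were empty. Chromosomes 14 and 18 therefore held about as many peaks per Mb but differed in median gap and in the share of empty windows. The pair was picked after its values were seen, and no interval was formed for the shares of empty windows. At short range the 2 were close. The share of peaks with a neighbour within 10 kb was 17.7% (13.2 to 23.0%) on chromosome 14 and 16.2% (11.4 to 22.0%) on chromosome 18.

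**Figure D3:**
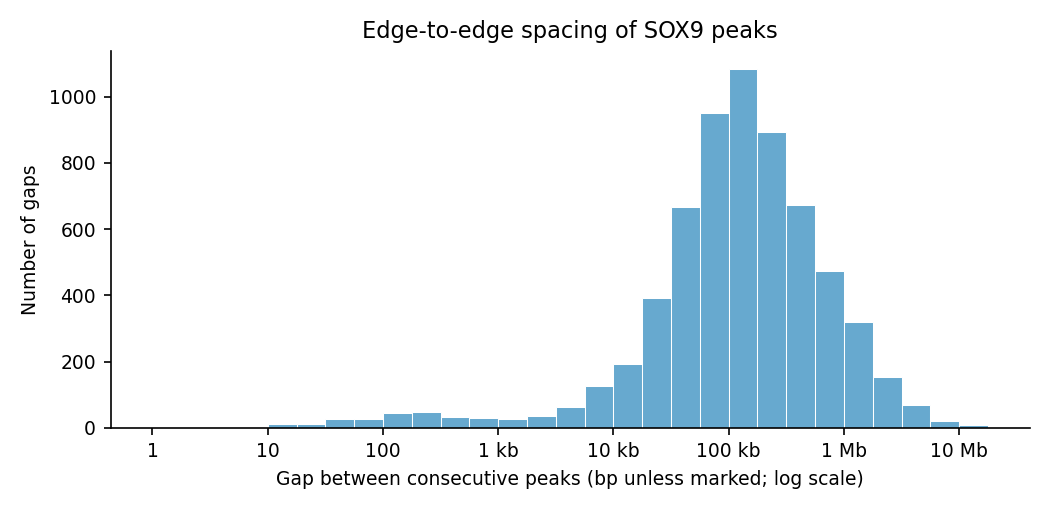
Number of gaps (vertical axis) by the edge-to-edge distance between consecutive SOX9 peaks (horizontal axis, log scale, 4 bins per power of 10). Most of the 6400 gaps lie around the median of 130 kb, and a separate low hump lies below 1 kb, where 249 gaps fall.

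The shortest gaps formed a class of their own. Gaps under 100 bp numbered 91, those from 100 to 200 bp 55, from 200 to 300 bp 31, from 300 to 400 bp 20 and from 400 to 500 bp 14. The number thus fell with distance, and 26 gaps were under 20 bp. The 211 pairs with a gap under 500 bp had a median gap of 116 bp and involved 415 peaks, 6.47% of the list. The wider peak of a pair had a median of 948 bp and the narrower one a median of 683 bp. The members of a pair were sorted by width, so neither value can be set against the 953 bp of the whole list. Unsorted, the 415 peaks had a median of 781 bp (751 to 818 bp). The median ratio of narrower to wider was 0.737, and no ratio was formed for other pairs of peaks. Joined, the 211 pairs made 204 regions, 197 of 2 peaks and 7 of 3 peaks. Regions of 2 peaks were 1830 bp long at the median (1757 to 1903 bp), against 965 bp (954 to 977 bp) for the 6004 peaks without such a neighbour. A joined region holds both peaks and the gap between them, so its greater length follows from its construction. The longest joined region, of 3 peaks, was chr18:47526410-47530553 with 4144 bp. It exceeded the widest single peak of the list by a small margin, as did chr5:3340682-3344786 with 4105 bp and chr19:26678513-26682568 with 4056 bp, each of 2 peaks. These regions were chosen after their values were seen. How the peak caller divides or joins neighbouring signal is not given in the sources used here, so whether such pairs are 2 sites or 1 could not be told apart.

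At a joining distance of 10 kb, 5462 peaks or 85.1% of the list stood alone (84.2 to 86.0%). Pairs numbered 415 and triplets 38. Only 3 clusters held 4 or more peaks. One, of 5 peaks of 979 to 1584 bp, spread over 22.1 kb of chromosome 2 (17947656 to 17969732), and peaks covered 28.2% of it. One of 4 peaks of 521 to 1335 bp lay in 13.2 kb at chr18:83071382-83084534, covered to 27.2%. The third had 4 peaks of only 381 to 509 bp packed into 3.53 kb at chr13:115247453-115250981 and was covered to 51.0%. The share of peaks with a neighbour within 10 kb was highest on chromosome 11, at 19.7% (16.5 to 23.3%). It was lowest on chromosome 1, at 10.3% (7.49 to 13.7%). Having a neighbour is mutual, and the peaks counted lay in only 52 clusters on chromosome 11 and 20 on chromosome 1. The intervals take peaks as independent and are therefore too narrow to separate these shares. Chromosomes 11 and 1 also had the highest and the lowest number of peaks per Mb among autosomes (4.66 and 2.06). The dense chromosome 19 was at 14.3% (10.1 to 19.4%), near the autosomal median of 14.9%.

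Windows of 1 Mb showed how uneven the occupancy was along chromosomes. The median window held 2 peaks and the mean 2.62. Of 2449 windows, 421 held 1 peak, and 99 (4.04%) held 10 or more, which together contained 18.7% of all peaks. The fullest window of an autosome held from 11 peaks, on chromosome 13 (55000001 to 56000000), to 20, on chromosome 11. Sparse chromosomes also had rich windows. Chromosome 14 had 16 peaks between 70000001 and 71000000, chromosome 12 had 15 between 112000001 and 113000000, and chromosome 17 had 16 between 17000001 and 18000000. The window of chromosome 1, with 12 peaks between 95000001 and 96000000, was close to the bottom although that chromosome has the longest span. Autosomes had 623 empty windows of 2315 (26.9%), from 16.0% on chromosome 11 to the 34.5% of chromosome 14.

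Long stretches without a peak occurred on most autosomes. Gaps above 5 Mb numbered 27 of 6384 and lay on 15 of the 18 autosomes. After the 12.2 Mb on chromosome 15, the longest were 9.18 Mb on chromosome 7 (38969986 to 48153643), 9.14 Mb on chromosome 6 (72850727 to 81991379), 7.83 Mb on chromosome 14 (37781925 to 45608142) and 7.33 Mb on chromosome 12 (89599494 to 96931992). Chromosomes 1, 6 and 14 each had 3 gaps above 5 Mb. The longest gap was under 5 Mb on chromosomes 9 (4.39 Mb, 9239470 to 13630821), 13 (3.86 Mb, 25112858 to 28975830) and 19 (4.94 Mb, 48280215 to 53217151). Chromosome 13 thus had a low density and the shortest maximum gap among autosomes. Assembly gaps and sequence to which reads cannot be placed were not available for mm9, and their part in these stretches was not tested.

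SOX9 peaks were commoner toward the distal ends of autosomes. Mouse autosomes carry the centromere at the end from which positions are counted. Each autosome was divided into 10 equal parts between its outermost peaks. Part 10 held 867 of 6402 autosomal peaks (13.54%, exact binomial interval 12.7 to 14.4%), or 3.77 peaks per Mb, and part 9 held 791 (12.4%, 11.6 to 13.2%). Part 1 held 511 (7.98%, 7.33 to 8.67%) and part 3 was the emptiest with 454 (7.09%, 6.47 to 7.75%), or 1.98 peaks per Mb. The distal 5 parts together held 56.9% (55.7 to 58.1%). Width varied little between the parts. The median was 990 bp (959 to 1027 bp) in part 1 and 929 bp (901 to 959 bp) in part 10, and the medians of the parts between them lay from 930 to 987 bp.

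**Figure D4:**
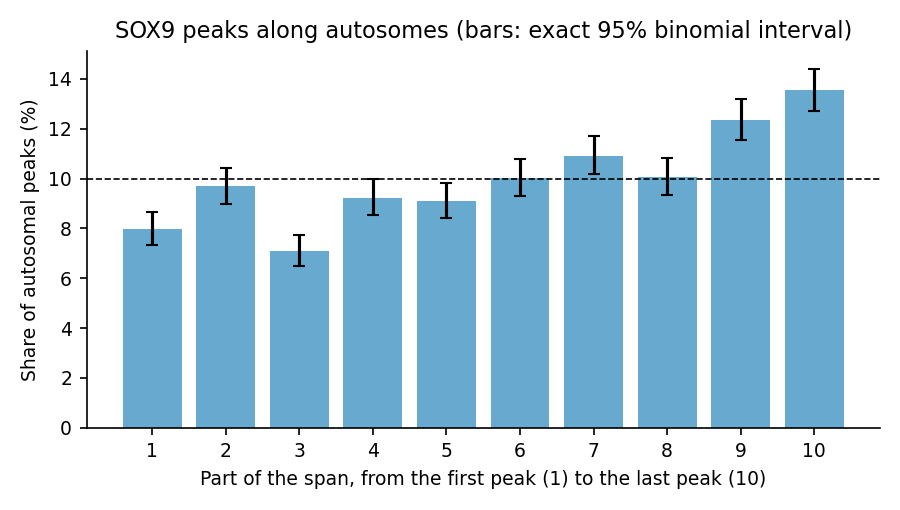
Share of the 6402 autosomal SOX9 peaks in percent (vertical axis) in each of 10 equal parts running from the first peak to the last (horizontal axis), with exact 95% binomial intervals; the dashed line marks an even share. Parts 9 and 10 lie above the line at 12.4% and 13.54%, and parts 1 and 3 below it at 7.98% and 7.09%.

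Autosomes differed in this slope. Of the 18, 16 held more peaks in part 10 than in part 1. Chromosome 5 had 66 against 21, chromosome 15 had 69 against 22 and chromosome 11 had 84 against 31. Chromosomes 18, with 10 against 23, and 19, with 24 against 65, went the other way. The distal 5 parts held the larger number on 12 autosomes, with an interval above 50% on 11 of them. On chromosomes 9 and 6 the lower end was only 50.3 and 50.4%. The intervals take peaks as independent and are too narrow, so the number of 11 is a description. Chromosome 15 was the most lopsided at 76.3% (71.0 to 81.0%), followed by chromosomes 3 and 11 at 66.7% each (61.5 to 71.5% and 62.6 to 70.6%). The reverse held on chromosome 17, where 32.6% (26.7 to 39.0%) lay in the distal 5 parts, and on chromosome 14 with 39.0% (32.9 to 45.3%). Chromosome 1 was even, with 199 peaks on each side. The dense chromosome 19 was even by this measure too (49.6%, 43.1 to 56.1%), although its first part alone held 65 of its 238 peaks.

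The X chromosome carried 17 peaks, scattered singly over its length. They began at 33.9 Mb, far beyond the 8.62 Mb of the latest autosomal start. None had a neighbour within 10 kb (exact binomial interval 0 to 19.5%), but this interval includes the autosomal median of 14.9%. The gaps between X peaks had a median of 8.50 Mb, against 0.130 Mb on autosomes, and 11 of 16 gaps were above 5 Mb. Only 2 gaps were under 1 Mb. One was the 0.132 Mb between chrX:45561303-45561867 (565 bp) and chrX:45694257-45695402 (1146 bp), and the other the 0.406 Mb between chrX:136405173-136406268 (1096 bp) and chrX:136812230-136812898 (669 bp). The longest gap lay between the peak chrX:109714360-109715268 (909 bp) and the peak chrX:126284289-126284917 (629 bp).

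Most X peaks were narrow. Of the 17, 11 were below 743 bp, the lower quartile of autosomal peaks, and 4 were above the autosomal median of 953.5 bp. The narrowest were chrX:84483446-84483852 with 407 bp, chrX:50341299-50341756 with 458 bp and chrX:83437403-83437885 with 483 bp. Peaks of 536 bp (chrX:101017367-101017902), 544 bp (chrX:103123986-103124529), 616 bp (chrX:69207643-69208258), 622 bp (chrX:149441506-149442127) and 709 bp (chrX:57657344-57658052) followed, all below that quartile. The first peak, chrX:33868679-33869633, measured 955 bp and the one before the last, chrX:158155163-158156080, 918 bp. The last, chrX:166434604-166436390, was by far the widest at 1787 bp and stood 8.28 Mb beyond its neighbour. It lies at the distal end of the chromosome, the end that carries the pseudoautosomal region shared with the Y. Whether it falls inside that region was not determined, since its boundary in mm9 was not used here. Cells of an XY testis have 1 copy of X against 2 of each autosome, and its part in the low number or the width of X peaks was not tested.

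Across autosomes, peak density went with gene density. Protein-coding genes were counted per chromosome from RefSeq on GRCm38.p6, used here for numbers only, and divided by the same spans as the peaks. Genes outside a span were counted too, which raises the gene density. On X the span leaves out the first 33.9 Mb. The 18 autosomes carried 32.0 peaks per 100 protein-coding genes. Pearson's r between the 2 densities was 0.768 and Spearman's rho 0.804 over 18 chromosomes, and r was 0.763 without chromosomes 7 and 11, the farthest from the median gene density. Both densities share the span as divisor, so these values are a description. Counted over all RefSeq genes, which adds noncoding genes and pseudogenes, r was 0.620 and rho 0.513, and r was 0.550 without the same 2 chromosomes. Without chemoreceptor genes (olfactory, vomeronasal and trace amine receptors), a choice made after seeing the data, r was 0.840 and rho 0.818. There r was 0.650 without chromosomes 11 and 19, so part of that relation rests on these 2 dense chromosomes.

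**Figure D5:**
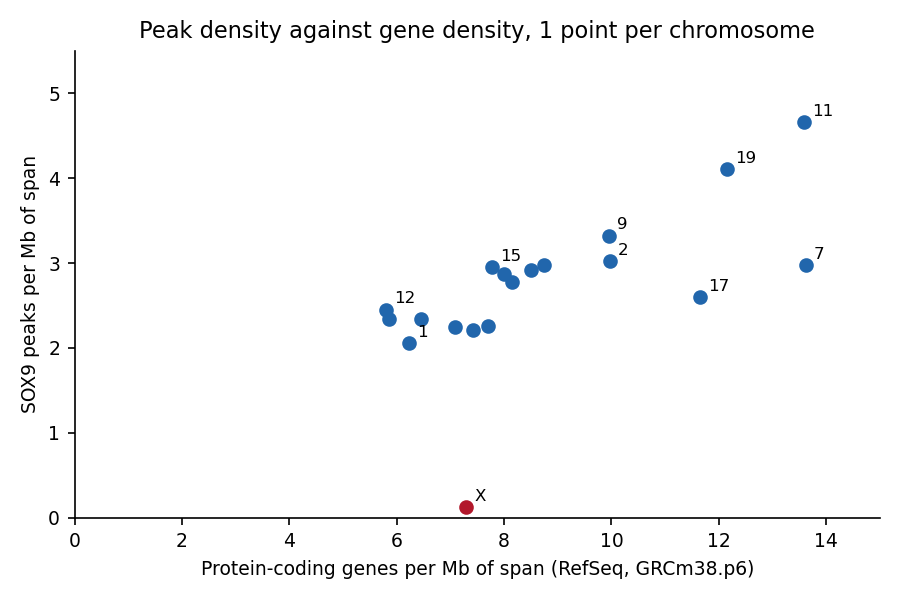
SOX9 peaks per Mb (vertical axis) against RefSeq protein-coding genes per Mb (horizontal axis), 1 point per chromosome, autosomes in blue and X in red, with selected chromosomes labelled. Chromosomes 11 and 19 are high in both, 7 and 17 lie below the other gene-rich autosomes, and X lies near the bottom at 0.128 peaks per Mb and 7.29 genes per Mb. Gene densities count the genes of the whole chromosome over the span of its peaks, which on X leaves out the first 33.9 Mb.

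Related to its genes, chromosome 11 lay close to the other autosomes. It had 34.3 peaks per 100 protein-coding genes (exact Poisson interval 31.5 to 37.3), against an autosomal median of 33.9, and chromosome 19 had 33.8 (29.6 to 38.3). Chromosome 12 had the highest value, 42.3 (37.5 to 47.5), followed by chromosome 18 with 39.9 (34.6 to 45.8) and chromosome 15 with 38.0 (33.8 to 42.6). Chromosomes 12 and 18 had the fewest protein-coding genes per Mb, 5.80 and 5.85. The gene number is the divisor of peaks per 100 genes, so the 2 measures are not independent and their relation is a description. Chromosome 7 had 21.8 (19.8 to 24.0) and chromosome 17 had 22.3 (19.5 to 25.3), and their intervals lay below those of every other autosome. These intervals take peaks as independent and are too narrow, so the difference is a description. Chromosome 7 carries large families of olfactory and vomeronasal receptor genes, which serve the nose and number 417 of its 2030 protein-coding genes in RefSeq. When chemoreceptor genes were left out, chromosome 7 had 27.5 peaks per 100 genes and chromosome 17 had 24.5, and the autosomes as a whole had 34.5. X had 1.76 (1.03 to 2.82) per 100 protein-coding genes.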

How the data were processed

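SOX9 ChIP-seq of mouse fetal testis was analysed from 1 peak list that, per the labels, serves both SOX9 libraries and the input. Each deposited line holds a chromosome, a start counted from 0, an end and a width in bp, which equalled end minus start in every line. The build mm9 is named in the submitters' processing notes. The handling of replicates is not given in the sources used here, and neither is the aligner, the peak caller or its threshold. Depth and threshold can change the length of such a list and the width of its peaks.

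Gaps, clusters (joined at 10 kb or less), 1 Mb windows (by midpoint, counted from the chromosome start) and 10 parts of each span were computed with Python 3.11.15, pandas 2.3.3, NumPy 2.4.6 and SciPy 1.17.1. Intervals were exact Poisson, exact binomial (Clopper-Pearson) or, for medians, from order statistics. No test was run. The functions were tested on simulated lists. Peaks named were all of X, the clusters of 4 or more, and some of the widest per chromosome and of the 10 narrowest. The densest window and longest gap per chromosome were summarised by their extremes. Others were chosen after seeing values. The members and lists were chosen with earlier results of these data known. Planned work on peak positions relative to genes and on motifs needed mm9 and was not run.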

Additional observations from a re-analysis of the deposited data

How the results depend on the processing

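Of 28 alternative values for 8 results, 11 stayed within the interval of the reported value (within 1.5 times for counts) and 17 moved. Keeping the widest 50% of peaks left 3213 peaks with a median width of 1211 bp, 1.32 peaks per Mb over all chromosomes against 2.64, 4.76% of peaks with a neighbour within 10 kb against 14.9%, 74 clusters against 456 and 42.0% empty windows against 30.3%. Fewer and wider peaks follow from its construction. Merging peaks under 500 bp apart gave a median width of 982 bp, 2.55 peaks per Mb, 8.99% with a neighbour and 268 clusters. Density was 2.79 without X and 2.54 with spans counted from position 1. With neighbours sought within 5 or 20 kb the share was 10.8% or 21.7%, and empty windows were 47.2% at 0.5 Mb and 15.7% at 2 Mb. Spearman's rho with gene density, 0.795 over 19 chromosomes, was 0.479 with all RefSeq genes. The share of autosomal peaks in the last of 10 parts stayed between 13.1% and 13.8% under its 3 alternatives. No paired analysis was possible because 1 list stands for all mouse libraries, and for that reason no replicate could be left out either. Depth is unknown, so regions too shallow to be called cannot be told from unbound ones.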
